A study of Mus musculus with 10 samples.

Results

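The unfolded protein response and the ATF4 response were followed through 40 genes, picked by symbol from the 39017 genes of the combined count table. The members comprised 15 genes of the ATF4 branch, 4 genes for the sensors of the endoplasmic reticulum (ER) and Xbp1, 14 ER chaperones and folding enzymes, and 7 genes of ER-associated degradation (ERAD). All 40 passed the filter on low counts, which left 15922 genes to test. Each member had 1 row in the table, and the smallest count of any member in any library was 108, for Chac1.

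The libraries came from lung tumors of C57BL/6 mice that carry, among other alleles, Trp53 Fl/Fl (KP), and from KPG1 mice that carried floxed Slc2a1 in addition. Slc2a1 encodes the glucose transporter Glut1. All mice had received Ad5-CC10-Cre into the trachea, an adenovirus that drives the recombinase from the promoter of the club cell protein CC10, and the tumors were collected after 20 weeks and 1 day, so that the controls also carried the Cre virus and the loss of Trp53. The 5 libraries labelled Control are labelled heterozygous fl/wt for Slc2a1 (the design text calls them wild type, and the methods of the study name controls of both kinds), and the 5 labelled Glut1-KO are homozygous fl/fl. Macrodissected tumors were dissociated and depleted of CD45-positive leukocytes on magnetic beads, and polyadenylated RNA was sequenced, which limits the samples to bulk mixtures of tumor cells with whatever other CD45-negative cells remained.

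All 5 controls were from male mice, whereas Glut1-KO 1, 2 and 3 were from female mice and Glut1-KO 4 and 5 from male mice. The deposited names carry a further number, of which there are 2 among the controls and 4 among the libraries labelled Glut1-KO; replicates 4 and 5 of the latter share one, and no label says whether it marks the mouse. Slc2a1 was read at 118, 86.7, 92.6, 103 and 73.2 CPM in Control 1 to 5 and at 60.3, 42.5, 34.6, 92.4 and 103 CPM in Glut1-KO 1 to 5 (CPM, counts per M after TMM scaling of the library totals, M for mega). Reads of this gene in Glut1-KO 4 and 5 therefore lay within the range of the controls, and "Glut1-KO" is used below as the label of the library. The libraries held 35.3 to 49.8 M counts each. Markers of lung epithelium, such as Epcam and Nkx2-1, summed to between 4072 and 10441 CPM. Leukocyte markers still summed to between 1441 and 11883 CPM in controls and between 2673 and 8606 CPM in Glut1-KO after the depletion. Such sums follow the most abundant markers and do not rank the groups by leukocyte content. With each of the 18 tested markers centred on its own mean log2 CPM, their mean ran from -0.65 to -0.03 in controls. In Glut1-KO it ran from -0.10 to 0.73, and 17 of the 18 fitted differences were above 0 and 1 below. P-values measure the spread between these libraries, which may be in part technical.

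The unfolded protein response adjusts the folding capacity of the ER to its load. Its sensors PERK (Eif2ak3), IRE1 (Ern1) and ATF6 (Atf6) are held inactive by the chaperone BiP (Hspa5). ATF6 and the spliced form of XBP1 induce chaperones and ERAD genes, whereas PERK phosphorylates the translation factor eIF2α, which lowers general translation and favours translation of Atf4. ATF4 in turn induces genes of amino acid uptake, tRNA charging and the feedback phosphatase subunit Ppp1r15a (GADD34), and it is reached also from amino acid shortage through GCN2, a route known as the integrated stress response. Atf4, Xbp1 and Atf6 are controlled to a large part after transcription, by translation, splicing and cleavage, which counts per gene do not show.

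Promoter letters known from each branch are shown first, as a description of the members. No expression value was tested against them. RefSeq promoter windows on GRCm38.p6 were at hand for 33 of the 40 members, and the 250 bases before each start were searched on both strands for exact letters. The ER stress response element (ERSE) was taken as CCAAT and CCACG with 9 bases between them, the element bound by ATF6 and XBP1 together with NF-Y. It was found in 7 of 12 ER chaperones (58.3%), in 2 of 6 ERAD genes (33.3%), in 0 of 12 ATF4 branch genes and in 35 of all 27025 promoters (0.13%). The windows are printed 5′ to 3′ on the strand of the gene with 20 bases on either side, and capitals mark the fixed letters, which read CGTGG and ATTGG where the element lies on the opposite strand. For Hsp90b1, which had 2 matches, the one nearer to the start is shown.
Hspa5, chr2:34772005-34772063, plus strand: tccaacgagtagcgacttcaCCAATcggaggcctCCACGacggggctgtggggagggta
Hsp90b1, chr10:86705513-86705571, minus strand: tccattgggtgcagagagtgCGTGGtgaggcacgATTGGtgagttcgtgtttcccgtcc
Calr, chr8:84847055-84847113, minus strand: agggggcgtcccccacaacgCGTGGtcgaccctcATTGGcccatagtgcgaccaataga
Canx, chr11:50325780-50325838, minus strand: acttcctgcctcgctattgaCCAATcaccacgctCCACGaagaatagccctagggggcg
Pdia6, chr12:17266471-17266529, plus strand: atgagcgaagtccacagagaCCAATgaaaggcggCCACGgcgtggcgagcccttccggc
Dnajc3, chr14:118937807-118937865, plus strand: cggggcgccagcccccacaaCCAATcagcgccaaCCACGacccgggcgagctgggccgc
Creld2, chr15:88819500-88819558, plus strand: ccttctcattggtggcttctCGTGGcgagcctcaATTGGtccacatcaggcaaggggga
Syvn1, chr19:6046512-6046570, plus strand: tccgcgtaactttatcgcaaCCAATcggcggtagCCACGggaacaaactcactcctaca
Derl3, chr10:75893222-75893280, plus strand: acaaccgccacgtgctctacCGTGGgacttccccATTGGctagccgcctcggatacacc

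Distances are from the RefSeq start, which can differ from the GENCODE start used for gene positions. For Hspa5 and Aars the RefSeq start lies inside the GENCODE gene, and so does the window shown. The ERSE of Hspa5 lay 47 to 65 bases before the RefSeq start, and those of Syvn1 and Hsp90b1 26 to 44 and 89 to 107 bases before it. Herpud1, an ERAD gene of the ER membrane, held in place of the ERSE the related ERSE-II, ATTGG and CCACG with 1 base between them, which 10 of all 27025 promoters held (0.037%). This element is made of the same letter groups as the ERSE in another arrangement. The core of the XBP1 element, TGACGTGG, was in none of the 33 member windows and in 0.603% of all promoters, and no match says only that these letters are not in these windows.

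For the ATF4 branch the core of the C/EBP-ATF response element, TGATGNAA, was searched. It was found in 3 of 12 ATF4 branch promoters, in Herpud1, in 0 of 12 ER chaperones and in 3.91% of all promoters. All 4 matches lay on the opposite strand, so that the capitals read TT and CATCA with the free base between them in lower case. Aars and Gars encode alanyl- and glycyl-tRNA synthetase, and Chac1 encodes an enzyme that degrades glutathione. Herpud1 alone among the members held both kinds of element, and its ERSE-II is printed after its ATF4 core.
Aars, chr8:111033710-111033757, plus strand: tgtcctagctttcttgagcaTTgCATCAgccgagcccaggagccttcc
Chac1, chr2:119351029-119351076, plus strand: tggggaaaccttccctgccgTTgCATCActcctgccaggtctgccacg
Gars, chr6:55037951-55037998, plus strand: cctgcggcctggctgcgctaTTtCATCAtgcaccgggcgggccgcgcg
Herpud1, chr8:94386297-94386344, plus strand: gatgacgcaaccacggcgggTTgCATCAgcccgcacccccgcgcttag
Herpud1 ERSE-II, chr8:94386357-94386407, plus strand: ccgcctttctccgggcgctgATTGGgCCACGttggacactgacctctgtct

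The branches sat at different levels in these tumors. Per length (RPKM, CPM per kb of exon, mean of 10 libraries), ER chaperones had a median level of 73.1 and ranged from 21.6 for Manf to 424 for Calr, so that the lowest of them still exceeded 83.7% of the genes tested. ATF4 branch genes had a median of 16.3 RPKM, from 3.24 for Chac1 to 106 for Atf4. ERAD genes had a median of 23.5 RPKM, from 2.88 for Derl3 to 88.8 for Herpud1. Of the sensors, Xbp1 was read at 63.6 RPKM and the sensors at 11.6 (Eif2ak3), 12.3 (Atf6) and 14.5 (Ern1). Calr, Hspa5, Pdia3 and Hsp90b1, which encode calreticulin, BiP, a disulfide isomerase and GRP94, each exceeded 99% of all genes tested.

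Between control tumors and those labelled Glut1-KO, no member passed the adjusted threshold. Limma on voom values called 0 of 40 members and 0 of 15922 genes (0%) at an adjusted p under 0.05, and edgeR called 0 members as well. At an unadjusted p under 0.05, limma marked 2 of 40 members, Ppp1r15a and Ddit4, both lower, beside 1223 of all genes (7.68%). DESeq2 called 1 of 40, Ppp1r15a, beside 215 of all genes (1.35%). The 5 and 5 libraries did not overlap for 1 of 40 members, again Ppp1r15a, beside 295 of all genes (1.85%). Fitted differences were above 0 for 13 members and below 0 for 27, with a median of -0.05 on the log2 scale, whereas 49.3% of all genes were above 0 with a median of -0.00. This split turned to 28 above and 12 below, with a median of 0.17, with sex as a covariate or with male libraries only, and was 7 above and 33 below, with a median of -0.19, for the female Glut1-KO libraries against all controls. With all controls male, the sex term is set by the Glut1-KO libraries alone. The first 2 settings are therefore the same comparison of Glut1-KO 4 and 5 with the controls, and neither separates sex from the group label. Leaving out 1 library at a time moved the median of -0.05 to between -0.14 and -0.01. The former was without Glut1-KO 4 (9 above, 31 below), the latter without Control 1 (18 above, 22 below). Quality weights gave 10 above and 30 below, with a median of -0.16. In bulk samples, fewer cells of a type and less RNA per cell cannot be told apart.

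**Figure D1:**
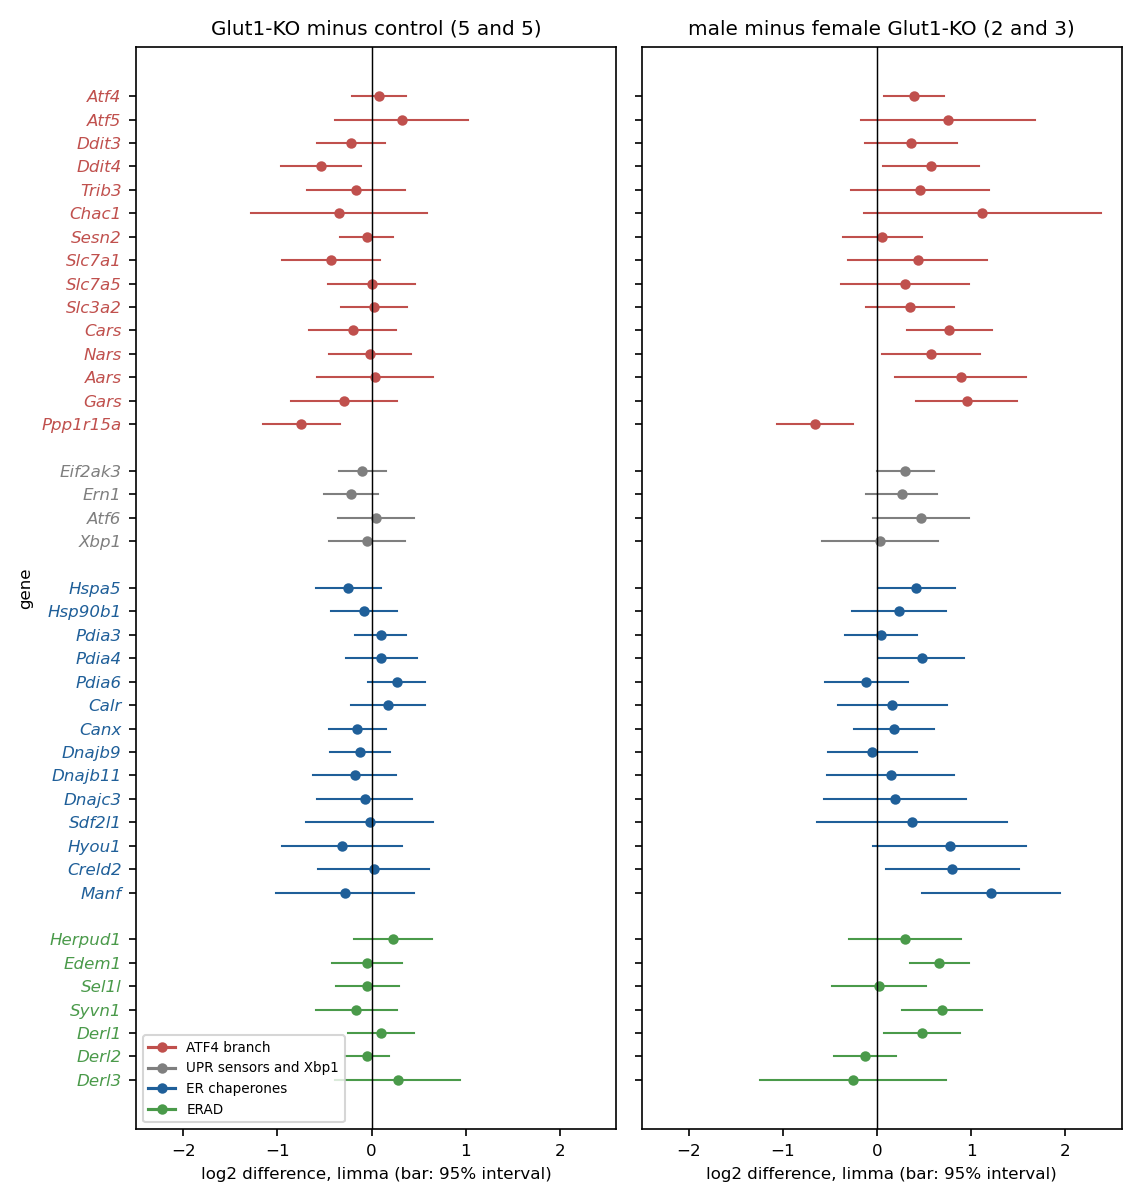
Fitted log2 difference (x axis) of each of the 40 genes (y axis, colored by role), with points for limma estimates and bars for 95% intervals. Left, Glut1-KO minus control (5 and 5 libraries), where the intervals of Ppp1r15a and Ddit4 lie below 0; right, male minus female Glut1-KO (2 and 3 libraries), where 35 of 40 points lie above 0.

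Ppp1r15a encodes GADD34, the subunit that directs protein phosphatase 1 to eIF2α and so restores translation. The gene lies at chr7:45522916-45526268 on the minus strand (GRCm38). Its level was 197, 164, 206, 188 and 248 CPM in Control 1 to 5 and 137, 145, 144, 78.9 and 102 CPM in Glut1-KO 1 to 5. Every library labelled Glut1-KO lay below every control, and the male pair was lowest. The mean was 200.5 ± 30.6 CPM (SD, n = 5) in controls and 122 ± 29.7 CPM (SD, n = 5) in Glut1-KO. The fitted difference was -0.75 ± 0.19 (log2, SE), a change of -40.5%, with an adjusted p of 0.363 by limma and 0.0307 by DESeq2. Over the other settings tried, the adjusted p of Ppp1r15a ran from 0.0894 with sex as a covariate to 0.606, and the difference from -1.14 to -0.48 (log2).

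A list of early stress and cell dissociation genes was read beside Ppp1r15a. Of 26 such genes, among them members of the Fos, Jun and Egr families, limma called 0 and DESeq2 called 6, all lower, beside 105 lower of all 15922 genes. Fitted differences were below 0 for 24, with a median of -0.35 (log2), and limma marked 11 as lower at an unadjusted p under 0.05, beside 640 of all 15922 genes. The groups did not overlap for 6, all lower, beside 168 of all genes. Their summed level was between 9098 and 11602 CPM in controls, between 8453 and 9236 CPM in female Glut1-KO and between 6448 and 7031 CPM in male Glut1-KO, the same order of groups as for Ppp1r15a. The part of this list in the Ppp1r15a difference was not tested.

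Ddit4 encodes REDD1, an inhibitor of mTORC1 that answers to ATF4, glucocorticoids and hypoxia. It was read at 132, 117, 93.5, 89.3 and 79.5 CPM in Control 1 to 5 and at 66.1, 61.3, 51.0, 79.8 and 96.4 CPM in Glut1-KO 1 to 5. The 3 female libraries lay below all controls, whereas both male Glut1-KO libraries lay within the range of the controls. The fitted difference was -0.54 ± 0.19 (log2, SE; limma adjusted p = 0.555), and an exact two-sided permutation test of the group labels gave p = 0.0556.

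Atf4 itself, the transcription factor of the branch (chr15:80255184-80257541, plus strand), was read at 249, 243, 209.6, 243 and 266 CPM in Control 1 to 5. In Glut1-KO 1 to 5 it was read at 201, 243, 244, 308 and 291 CPM, so that the 2 male libraries exceeded every control and Glut1-KO 1 lay below them. The fitted difference was 0.08 with a 95% interval from -0.21 to 0.36 (limma adjusted p = 0.905), and it ran from 0.01 without Glut1-KO 4 to 0.16 without Glut1-KO 1. Ddit3 encodes CHOP, a transcription factor downstream of ATF4 that promotes cell death under lasting stress. It was low, at 14.4 to 19.7 CPM in controls and 11.0 to 18.8 CPM in Glut1-KO, with overlapping groups and a difference of -0.22 (interval from -0.58 to 0.14, limma adjusted p = 0.775) that was -0.13 without Glut1-KO 2 and -0.14 without Control 2. Ddit3 overlaps Mars on the opposite strand, and the strand setting of the counting is not given in the sources used here.

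The amino acid transporters among the ATF4 targets spread widely between libraries of a group. Slc7a1, the cationic amino acid transporter CAT1, was read at 78.9, 131, 60.3, 67.9 and 75.1 CPM in controls and at 54.6, 61.5, 43.2, 55.0 and 89.7 CPM in Glut1-KO. Its difference was -0.43 ± 0.24 (log2, SE; limma adjusted p = 0.709), and it was -0.25 without Control 2, the highest control. Slc7a5, the large neutral amino acid transporter LAT1, ranged from 40.1 to 57.6 CPM in controls and from 34.4 to 69.99 CPM in Glut1-KO. Its partner Slc3a2, the heavy chain CD98, ranged from 137 to 208 and from 144 to 239 CPM. Both overlapped between the groups.

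The 4 tRNA synthetases of the list differed more within the libraries labelled Glut1-KO than between the groups. Gars was read at 149, 249, 151, 134 and 177 CPM in Control 1 to 5, at 95.2, 108 and 113 CPM in the female Glut1-KO libraries and at 185 and 224 CPM in the male ones. Aars was read at 170.3, 198, 115, 133 and 114 CPM in controls, at 148, 104 and 95.8 CPM in female Glut1-KO and at 161 and 276 CPM in male Glut1-KO. Female libraries were the lowest of all 10 for Gars, and a male Glut1-KO library was the highest of all 10 for Aars. Cars and Nars, for cysteine and asparagine, showed ranges of 37.6 to 51.1 and 188 to 196 CPM in female Glut1-KO against 71.8 to 82.4 and 286 to 287 CPM in male Glut1-KO. Of the remaining targets, Atf5, a factor translated like Atf4, ranged from 28.5 to 73.6 CPM in controls and from 34.2 to 76.9 CPM in Glut1-KO. Atf5 overlaps Il4i1 on the opposite strand, which was itself read at 40.1 CPM. Trib3, a pseudokinase that restrains ATF4, ranged from 10.4 to 23.5 and from 12.1 to 21.1 CPM. Sesn2, a leucine sensor upstream of mTORC1, ranged from 31.1 to 41.1 CPM and from 27.7 to 37.6 CPM. Over the 15 genes of the branch, 4 differences were above 0 and 11 below, with a median of -0.17 (log2). With each library left out in turn, this median ran from -0.30 without Glut1-KO 5 to -0.05 without Glut1-KO 2, and it was -0.08 without Control 2 and -0.11 without Glut1-KO 1.

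**Figure D2:**
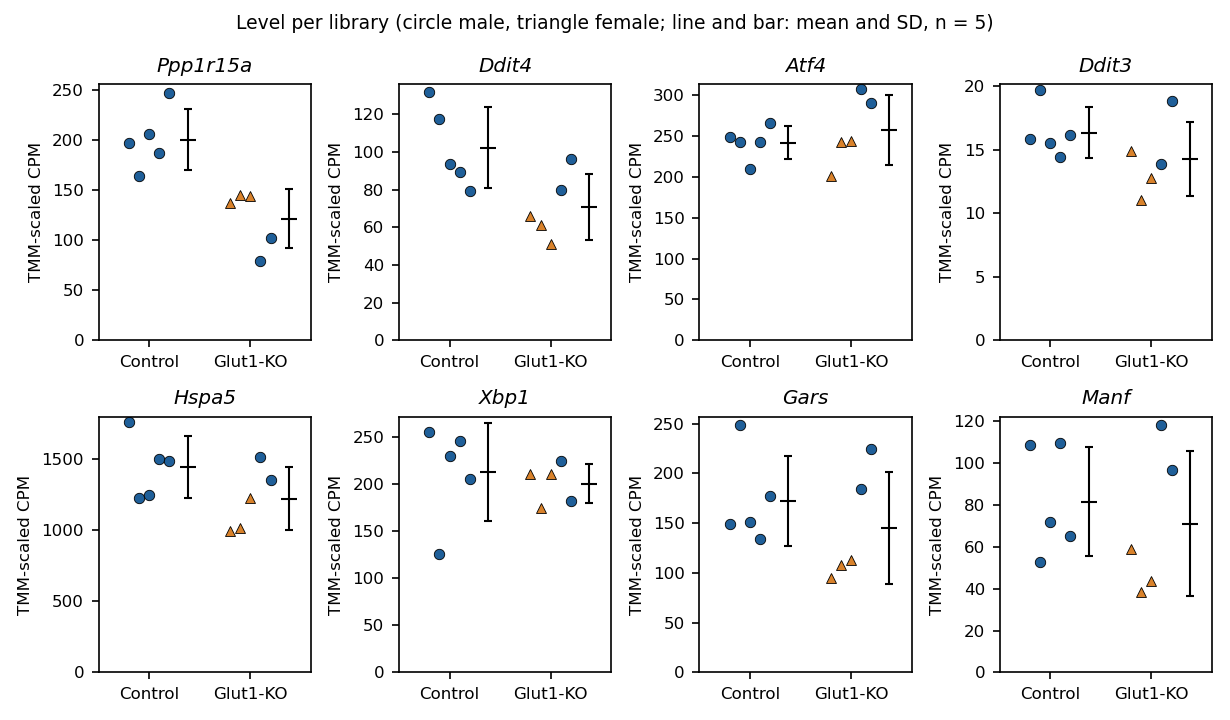
TMM-scaled CPM (y axis) of 8 genes in each library of the 2 groups (x axis), with circles for male and triangles for female mice and mean and SD (n = 5) beside each group. Ppp1r15a shows groups that do not overlap, and Gars and Manf show female Glut1-KO libraries (95.2 to 113 and 38.2 to 59.1 CPM) below the male ones (185 to 224 and 96.5 to 118 CPM).

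For the sensors and Xbp1, the groups overlapped for all 4 genes. Ern1, whose product splices Xbp1, was read at 127, 103, 128, 159 and 123 CPM in controls and at 108, 96.0, 99.8, 121 and 121 CPM in Glut1-KO. Its groups overlapped, with a difference of -0.22 (interval from -0.50 to 0.06, limma adjusted p = 0.724) that was -0.14 without Control 4. Eif2ak3, which encodes PERK, ranged from 63.7 to 80.5 and from 59.3 to 77.6 CPM, with a difference of -0.10 (interval from -0.35 to 0.15; -0.06 without Glut1-KO 1 or Control 4 and -0.15 without Glut1-KO 4). Atf6 ranged from 88.5 to 145 and from 95.9 to 152 CPM with a difference of 0.04 (interval from -0.36 to 0.45) that ran from -0.06 without Glut1-KO 4 to 0.14 without Control 1. Xbp1 was read at 126 CPM in Control 2 and between 205 and 256 CPM in the other controls, against 175 to 225 CPM in Glut1-KO, with a difference of -0.05 (interval from -0.46 to 0.35) that ran from -0.22 without Control 2 to 0.03 without Control 1.

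Hspa5, the chaperone that holds the sensors inactive and the usual marker of ER stress (chr2:34771970-34777547, plus strand), was the member with the most counts. It was read at 1758, 1225, 1249.6, 1498 and 1485 CPM in Control 1 to 5 and at 992, 1018, 1228, 1512 and 1350.5 CPM in Glut1-KO 1 to 5. Glut1-KO 1 and 2 lay below all controls and the other 3 within their range. The difference was -0.25 ± 0.16 (log2, SE), with an interval from -0.59 to 0.10 (limma adjusted p = 0.745), and the exact permutation test gave p = 0.167. With male libraries only the difference was -0.0020, and for the female Glut1-KO libraries against all controls it was -0.41.

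Among the 14 ER chaperones, 5 differences were above 0 and 9 below, with a median of -0.08 (log2), and the groups overlapped for all 14. This median became 0.05 without Control 1 and 0.01 without Control 4. It was -0.15 without Control 2 and -0.19 with quality weights. Pdia6, a disulfide isomerase, had the smallest unadjusted p of the list. Its controls lay at 463, 444, 509, 481 and 509 CPM and its Glut1-KO libraries at 488, 580.4, 752, 641 and 471 CPM. Of the latter, 3 exceeded every control, and the difference was 0.27 ± 0.14 (log2, SE; limma adjusted p = 0.687; exact permutation p = 0.0873). Without Glut1-KO 3 it was 0.17. Pdia6 overlaps Atp6v1c2, a gene on the opposite strand that was itself read at 145 CPM. Canx, the membrane-bound lectin chaperone calnexin, ranged from 406 to 642 CPM in controls and from 418 to 509 CPM in Glut1-KO, with a difference of -0.15 (interval from -0.45 to 0.15) that was -0.06 without Control 1. Its soluble relative Calr ranged from 880.3 to 1599 and from 1024 to 1365 CPM.

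Several chaperones spread widely among the controls. Sdf2l1, a partner of BiP and its J proteins, ranged from 16.4 to 41.2 CPM in controls, and Hyou1, the nucleotide exchange factor GRP170 of BiP, from 157 to 371 CPM. Creld2 and Manf, both small ER proteins that are released under stress, ranged from 28.3 to 63.5 and from 52.7 to 109.6 CPM in controls. For all 4, Control 1 and Control 4 were the highest controls. Hsp90b1 ranged from 908 to 1466 CPM in controls and from 956 to 1192 CPM in Glut1-KO, and the disulfide isomerase Pdia4 from 275 to 395 and from 268 to 453 CPM. The groups of Pdia3 and of the J proteins Dnajb9, Dnajb11 and Dnajc3, which hand clients to BiP, overlapped as well.

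ERAD genes return misfolded proteins to the cytosol. Herpud1 ranged from 165 to 245 CPM in controls and from 156 to 298 CPM in Glut1-KO, with a difference of 0.23 (interval from -0.19 to 0.64, limma adjusted p = 0.792) that was 0.12 without Glut1-KO 3 and 0.35 without Glut1-KO 1. Syvn1 encodes the ubiquitin ligase HRD1 and overlaps Mrpl49 on the opposite strand. Its controls ranged from 75.6 to 112 CPM, its female Glut1-KO libraries from 57.1 to 71.6 CPM and its male ones were at 112 and 97.8 CPM, with a difference of -0.16 between the groups (interval from -0.59 to 0.26) that ran from -0.29 without Glut1-KO 4 to -0.05 without Glut1-KO 2. Derl3, a derlin known from secretory cells, was low at 3.75 to 8.62 and 4.24 to 10.3 CPM, with a difference of 0.28 (interval from -0.38 to 0.94) that was 0.07 without Glut1-KO 3, 0.18 without Control 3 and 0.47 without Control 4. Plasma cells are secretory cells rich in these genes. Of 16 markers of plasma and B cells, 7 passed the filter on low counts. Of these 7, 5 were higher in Glut1-KO, with a median of 0.49 (log2) over the 7. Leukocyte markers were higher for 17 of 18, with a median of 0.67. The summed plasma and B cell markers ran from 1065 to 1207 CPM in controls and from 1011 to 2040 CPM in Glut1-KO. Endothelial markers were above 0 for 12 of 12 (median 0.65) and alveolar type 2 markers for 8 of 10 (median 0.21), whereas ciliated cell markers were below 0 for 9 of 9 (median -1.23) and club cell markers for 8 of 10 (median -0.45). Limma called 0 genes of these 6 lists and marked 9 leukocyte, 1 plasma and B cell and 1 endothelial marker as higher at an unadjusted p under 0.05, beside 583 of all 15922 genes. DESeq2 called 5 leukocyte markers as higher and 1 ciliated cell marker as lower, beside 110 higher and 105 lower of all genes. The part of these cells in the levels of the ER genes was not tested. Over the 7 ERAD genes, 3 differences were above 0 and 4 below, with a median of -0.04 that was above 0 without Glut1-KO 1 (0.03), Glut1-KO 3 (0.04), Glut1-KO 5 (0.02) or Control 4 (0.01).

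The levels of both branches overlapped between the groups. The list level of a library was taken as the mean over a list of the log2 CPM of each gene minus its mean over the 10 libraries. The ATF4 branch level was 0.08 ± 0.19 (SD, n = 5) in controls and -0.08 ± 0.31 (SD, n = 5) in Glut1-KO, and the ER chaperone level 0.03 ± 0.31 and -0.03 ± 0.22. Per library, ER chaperones minus ATF4 branch ranged from -0.65 to 0.41 in controls and from -0.37 to 0.32 in Glut1-KO, so that the range of Glut1-KO lay inside that of the controls.

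Across libraries, the members of each branch tended to vary together. ER chaperones were highest in Control 1 (0.42), Glut1-KO 4 (0.33) and Control 4 (0.28), and lowest in Control 2 (-0.29) and Glut1-KO 2 (-0.24). The ATF4 branch was highest in Glut1-KO 5 (0.40) and Control 2 (0.36) and lowest in Glut1-KO 2 (-0.37) and Glut1-KO 3 (-0.30). Control 2 thus combined the lowest chaperone level with the second highest ATF4 level, whereas Control 1 combined the highest chaperone level with an ATF4 level of 0.01. Control 2 was also the library with the most counts, 49.8 M.

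**Figure D3:**
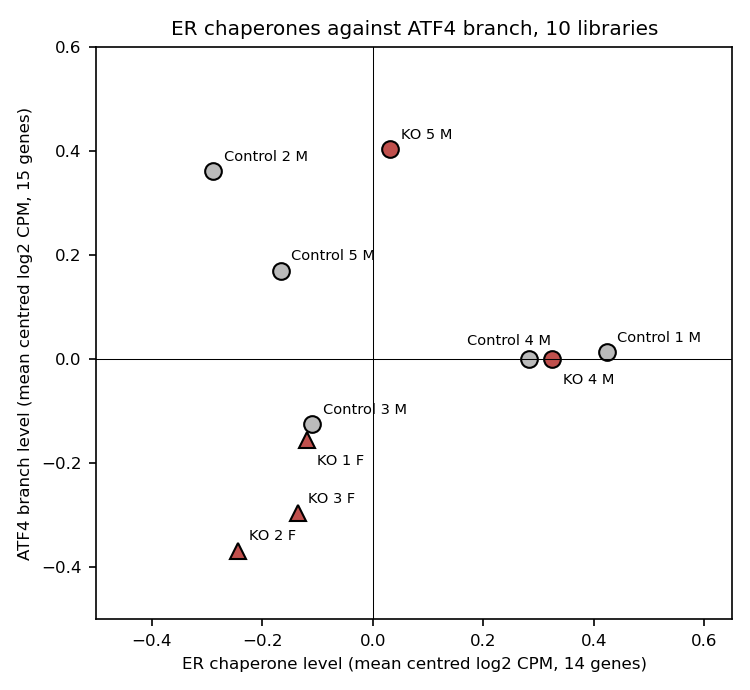
ER chaperone level (x axis) against ATF4 branch level (y axis), each the mean of centred log2 CPM over the list, for the 10 libraries, in grey for controls and red for Glut1-KO, circles male and triangles female. Control 1, Control 4 and Glut1-KO 4 lie to the right near 0 on the ATF4 axis, and Control 2 and Glut1-KO 5 lie at the top (0.36 and 0.40).

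With group means removed, the median pairwise correlation over the 10 libraries was 0.69 among ER chaperones (91 pairs) and 0.45 among ATF4 branch genes (105 pairs). Between the 2 lists it was -0.02 (210 pairs), and over all pairs of genes tested it was -0.00, with 13.6% of pairs above 0.5. These are descriptions over 10 libraries that share scaling and may share a batch, which the sample labels used here do not name. Each library left out in turn gave 0.61 to 0.77 for the chaperones and -0.08 to 0.16 between the lists. For the ATF4 branch the median fell to 0.24 without Glut1-KO 5. The sensors and Xbp1 had a median of 0.64 with the chaperones (56 pairs) and of 0.01 with the ATF4 branch (60 pairs). The latter pools unlike members, since Eif2ak3 had 0.53 with the mean of the ATF4 branch and 0.72 with that of the chaperones, whereas Xbp1 had -0.42 and 0.71.

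Single members departed from their list. Atf6 had a correlation of 0.96 with the mean of the ER chaperones, and Hsp90b1, Canx, Creld2 and Sdf2l1 had 0.90, 0.89, 0.89 and 0.88 with the mean of the other chaperones. Dnajb9, the J protein ERdj4 that is a target of XBP1, had -0.41 and Pdia6 had 0.04. The Pdia6 promoter holds the ERSE shown above, and no correlation was tested against promoter letters. In the ATF4 branch, Ddit3, Aars and Chac1 had 0.91, 0.88 and 0.87 with the mean of the others. Slc3a2 had -0.03 with the ATF4 branch and 0.67 with the chaperones, and Ppp1r15a had -0.66 with the ATF4 branch. Ppp1r15a thus ran against its own list. Syvn1 and Derl1 had 0.80 and 0.79 with the chaperones, whereas Sel1l, the adaptor of the HRD1 ligase, had 0.01.

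**Figure D4:**
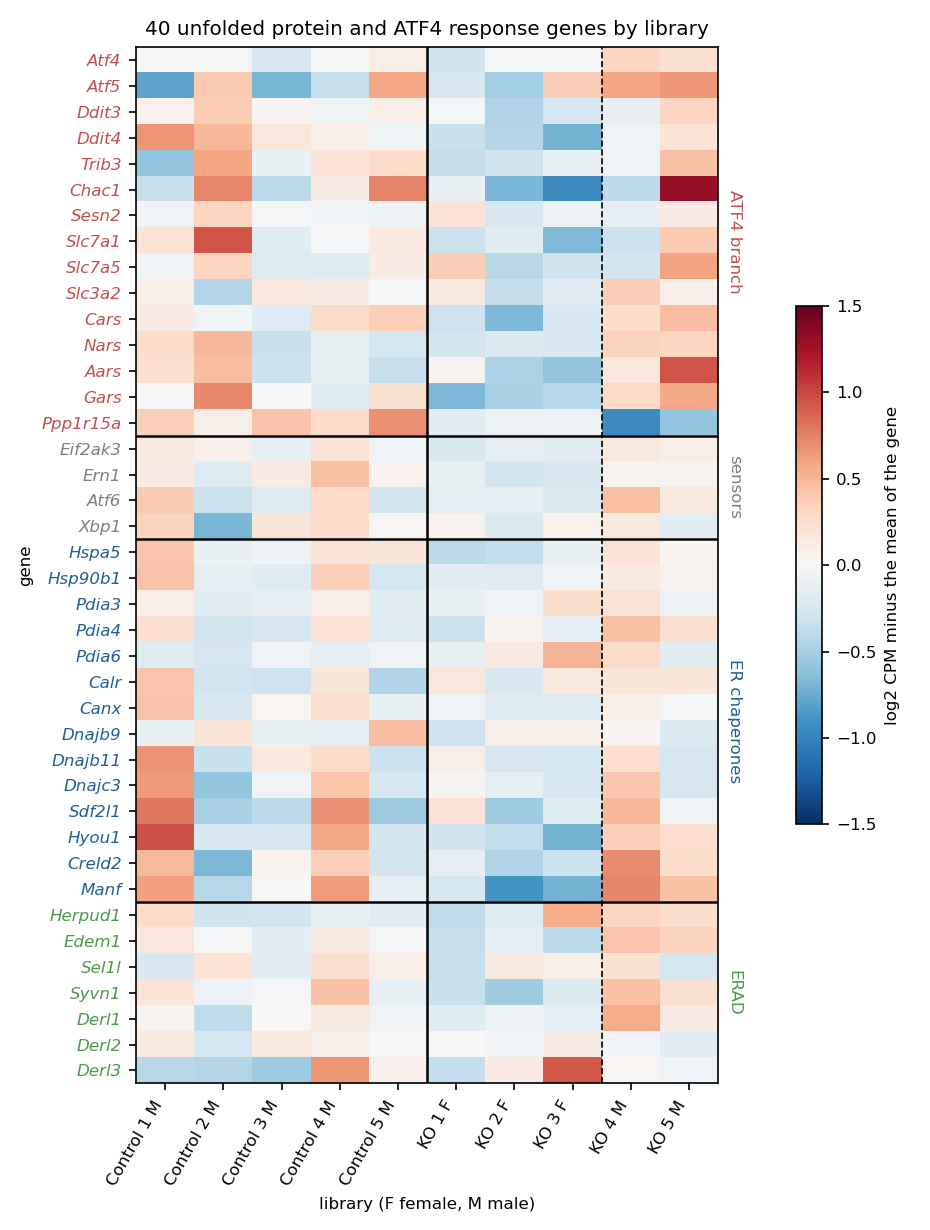
Log2 CPM minus the mean of the gene (color) for the 40 genes (rows, by role) in the 10 libraries (columns, Control 1 to 5 and Glut1-KO 1 to 5, F female and M male). Most ER chaperones are red in Control 1, Control 4 and Glut1-KO 4, most ATF4 branch genes are blue in the 3 female Glut1-KO libraries, and Ppp1r15a is blue in Glut1-KO 4 and 5.

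Because the members split within the libraries labelled Glut1-KO, the 2 male and the 3 female ones were compared in a limma fit with 3 groups. This comparison was chosen after the data were seen, and sex, a shared name number and the level of Slc2a1 cannot be told apart in it. Of the 40 members, 35 were higher in the male pair, beside 48.98% of all genes, with a median difference of 0.36 (log2) beside -0.01 over all genes. DESeq2 called 6 of 40 members, beside 1196 of all 15922 genes. By limma, no member passed the adjusted threshold, beside 8 of all genes (0.0502%), of which 5 lie on a sex chromosome. At an unadjusted p under 0.05, 13 of 40 members were higher in the male pair, beside 9.89% of all genes, and 1, Ppp1r15a, was lower, beside 8.68%. The 2 and 3 libraries did not overlap with the male pair higher for 22 members, beside 20.3% of all genes, and with the male pair lower for 2, Ppp1r15a and Derl2, beside 20.6%. Derl2 overlaps Mis12 on the opposite strand.

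By role, medians were 0.46 for the ATF4 branch (14 of 15 higher), 0.28 for the sensors (4 of 4), 0.21 for ER chaperones (12 of 14) and 0.30 for ERAD genes (5 of 7). Scaling by library totals in place of TMM lowered the median over all genes from -0.01 to -0.11. It lowered the ATF4 branch median to 0.36 and the ER chaperone median to 0.11, and left 8 members higher at an unadjusted p under 0.05. That count was also 8 without Glut1-KO 1. These counts have no share of all genes under the same setting beside them, so no enrichment is read from them. The ATF4 branch median was 0.71 without Glut1-KO 4. The ER chaperone median was 0.47 without Glut1-KO 5 and 0.14 without Glut1-KO 4. The ERAD median was 0.11 without Glut1-KO 1 and 0.48 without Glut1-KO 3.

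Members named here for this comparison were chosen after their values were seen. Edem1, a lectin that draws glycoproteins into ERAD, had the smallest adjusted p, 0.106 by limma, and was read at 118, 136 and 114 CPM in female and 199 and 188 CPM in male Glut1-KO, a difference of 0.66 ± 0.14 (log2, SE). Gars differed by 0.95 ± 0.24 and Cars by 0.76 ± 0.20. Manf was read at 59.1, 38.2 and 43.4 CPM in the female and at 118 and 96.5 CPM in the male libraries, a difference of 1.21 ± 0.33. It shares bases with Vprbp on the opposite strand and Rbm15b on its own. Ppp1r15a differed in the opposite direction, by -0.66 ± 0.18. For Gars, the female values lay below all controls (134 to 249 CPM) and the male values within them. For Manf, 2 of the 3 female values lay below the controls (52.7 to 109.6 CPM) and 1 male value above them.

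In the same comparison limma called 0 genes of the marker lists. Fitted differences, male minus female, were below 0 for all 12 proliferation genes, all 12 endothelial markers and all 9 ciliated cell markers tested, with medians of -0.51, -0.91 and -1.95 (log2), for 16 of 18 leukocyte markers, for 9 of 10 alveolar type 2 markers (median -0.73), for 7 of 10 club cell markers (median -0.61), for 5 of 7 plasma and B cell markers (median -0.82) and for 17 of 26 stress and dissociation genes (median -0.29). They were above 0 for 5 of 5 erythroid markers, with a median of 1.49, and for 6 of 9 lung epithelial markers, with a median of 0.58. The lung epithelial markers summed to between 7034 and 10441 CPM in the male and between 4072 and 5750 CPM in the female libraries. At an unadjusted p under 0.05 limma marked 1 proliferation gene, 1 erythroid marker, 2 leukocyte markers, 1 alveolar type 2 marker, 2 plasma and B cell markers, 8 stress genes and 5 lung epithelial markers in these directions, and 0 endothelial, ciliated or club cell markers, beside the shares of all genes given above. In the opposite direction limma marked 1 alveolar type 2 marker, 1 plasma and B cell marker and 2 stress genes at this p. Fibroblast markers split, with 4 above 0 and 5 below of 9 tested (median -0.04). Limma marked 2 of them as lower in the male pair and 0 as higher at this p. The part of the cells of these lists in the member differences was not tested.

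Set against the controls, which were all male, the male and the female Glut1-KO libraries gave medians on opposite sides of 0. With the 2 male Glut1-KO libraries and the 5 controls, the median was 0.23 for the ATF4 branch (11 of 15 above 0) and 0.14 for ER chaperones (10 of 14), with 0.26 for ERAD genes and 0.03 for the sensors. The 3 female Glut1-KO libraries against the 5 controls gave medians of -0.34 for the ATF4 branch and -0.18 for the sensors. For ER chaperones the median was -0.16 and for ERAD genes -0.05. Above 0 were 1 of 15 ATF4 branch genes, 0 of 4 sensors, 3 of 14 ER chaperones and 3 of 7 ERAD genes. These comparisons share the control libraries. Ppp1r15a was below 0 in both, at -1.14 for the male and -0.48 for the female Glut1-KO libraries. Ddit4 was at -0.19 and -0.76, Slc7a1 at -0.17 and -0.60, Ern1 at -0.06 and -0.32 and Canx at -0.05 and -0.22. Atf4 was at 0.31 and -0.07, Atf6 at 0.32 and -0.14 and Syvn1 at 0.26 and -0.43. Herpud1 was above 0 in both, at 0.40 and 0.11, as was Derl3, at 0.12 and 0.38.

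Genes of the same pathways outside the 40 were drawn from lists. Of 45 other ATF4 pathway genes tested, 0 passed the adjusted threshold by limma, 21 differences were above 0 and 24 below, with a median of -0.04, and at an unadjusted p under 0.05 limma marked 1 higher and 3 lower, beside 583 higher and 640 lower of all 15922 genes. DESeq2 called 1 of them, beside 1.35% of all genes. This was Atf3, an immediate-early factor that is also in the stress list above. Atf3 was read at 413, 212, 278, 322 and 327 CPM in controls and at 179, 168, 177, 131 and 146 CPM in Glut1-KO, every one below every control (difference -0.94 ± 0.17, log2, SE; limma adjusted p = 0.23; DESeq2 adjusted p = 0.000274). Over the other settings, its adjusted p ran from 0.0929 with quality weights to 0.559. Iars, isoleucyl-tRNA synthetase, ranged from 102 to 129.5 CPM in controls and from 90.4 to 111 CPM in Glut1-KO (difference -0.31, limma adjusted p = 0.513). Wars, tryptophanyl-tRNA synthetase, which interferon also induces, ranged from 139 to 276 CPM and from 200.02 to 286 CPM (difference 0.49, limma adjusted p = 0.599). Ppp1r15b, the constitutive counterpart of Ppp1r15a, was read at 143, 147, 119, 139.6 and 133 CPM in controls and at 132, 166, 170.04, 160.1 and 173 CPM in Glut1-KO. In Glut1-KO 4 of 5 libraries exceeded all controls (difference 0.23 ± 0.11, log2, SE; limma adjusted p = 0.664).

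Of 74 other ER folding genes tested, limma called 0, DESeq2 called 0, and at an unadjusted p under 0.05 limma marked 2 higher and 1 lower, beside 583 higher and 640 lower of all 15922 genes. Differences were above 0 for 33 and below for 41, with a median of -0.02. Kdelr3, a receptor that returns chaperones to the ER, ranged from 14.2 to 17.6 CPM in controls and from 17.3 to 33.5 CPM in Glut1-KO (difference 0.50 ± 0.19, log2, SE; limma adjusted p = 0.599). Fkbp11, a prolyl isomerase of secretory cells, was read at 8.58 to 12.3 and 10.5 to 18.7 CPM (difference 0.54 ± 0.21; limma adjusted p = 0.61). Mbtps2, the protease that releases ATF6 from the membrane, and Magt1, a subunit of the oligosaccharyltransferase, differed by -0.34 and -0.25 with limma adjusted p-values of 0.644 and 0.773, and the difference of Magt1 was -0.14 without Glut1-KO 2. In the comparison of male with female Glut1-KO, 33 of the 45 and 57 of the 74 genes were higher in the male pair, the same direction as the members.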

How the data were processed

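RNA of 10 bulk tumor libraries had been prepared by the authors with a stranded polyA kit and read single-end on a NextSeq instrument. The submitters' processing notes name bcl2fastq 2.17, cutadapt 1.4.2, HISAT2, featureCounts 1.4.4 and edgeR, with build mm10; the annotation release and the strand setting are not given in the sources used here. The deposited tables hold raw read counts per Ensembl gene, and the combined table equalled all 10 single files. A further deposited table of log2 values was not used here.

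Counts were filtered with filterByExpr (minimum count 10, minimum total 15), scaled by TMM (edgeR 4.0.16), and passed to voom (prior count 0.5) and limma 3.58.1 in R 4.3.3, with group as the single term. This follows the methods of the study, except that those filtered by TPM. Benjamini-Hochberg adjustment ran over all 15922 genes, with a threshold of 0.05. edgeR's quasi-likelihood test and DESeq2 1.42.0 were alternatives, beside other scalings, filters, covariates and subsets of libraries. Single values were also tested by an exact permutation test. The pipeline was tested on simulated counts. Levels are TMM-scaled CPM; lengths and positions come from GENCODE M21 on GRCm38, and promoters from RefSeq (GRCm38.p6).

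The members and lists were chosen with earlier results of these data known. Named genes were the 7 factors and sensors (Atf4, Ddit3, Hspa5, Xbp1, Eif2ak3, Ern1, Atf6), in each role the 3 with the smallest p, members called or not overlapping, in each other pathway list the 2 with the smallest p in either direction, and Slc2a1. Libraries labelled as replicates may share a mouse, in which case p-values measure in part technical spread.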

Additional observations from a re-analysis of the deposited data

Results flagged for a closer look

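Within groups of 5 libraries, the gap of the highest or lowest library to its neighbour was compared with the range of the group for the 40 members and the other named genes, the list levels and the total counts. In 7 of 110 groups it exceeded 0.71 of the range, and chance gives about 5.5 of 110. Control 2 was involved in 3 of these. Its Sesn2 level was 41.1 CPM against 31.1 to 32.1 CPM in the other controls, its Slc7a1 level 131 CPM against 60.3 to 78.9 CPM, and its total 49.8 M counts against 40.1 to 41.4 M. Chac1 was read at 11.7 CPM in Glut1-KO 5 against 2.43 to 4.41 CPM in the other Glut1-KO libraries. Calr was lowest in Glut1-KO 2 at 1024 CPM against 1324 to 1365 CPM, and Derl3 was highest in Glut1-KO 3 at 10.3 CPM against 4.24 to 5.92 CPM. Iars was highest in Glut1-KO 5 at 111 CPM against 90.4 to 91.9 CPM in the other Glut1-KO libraries.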

How the results depend on the processing

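The count of members past the adjusted threshold was 0 under every alternative but DESeq2 (1, Ppp1r15a). Over all genes the count of 0 became 215 with DESeq2, 3 with sex as a covariate, 1 with male libraries only and 7 with female Glut1-KO libraries against all controls, and ranged from 0 to 1 with each replicate left out (1 without Control 3). Correlations between same-numbered replicates ran from -0.13 to 0.20, which cannot settle whether the numbers pair samples. A fit with the replicate number as a block called 0 genes and 0 members. With sex as a covariate or male libraries only, the medians of the ATF4 branch, ER chaperones, ERAD and sensors turned to 0.23, 0.14, 0.26 and 0.03, and Ddit3 (0.0028 and 0.0032), Eif2ak3 (0.0819 in both), Syvn1 (0.257), Magt1 (0.0377 and 0.0374) and Slc2a1 (0.0613 and 0.0611) changed sign. As all controls were male, both settings set Glut1-KO 4 and 5 against the controls and do not count as separate checks. Atf4 (-0.0733) and Atf6 (-0.137) changed sign with female Glut1-KO libraries only, and Atf6 (-0.0944) and Derl3 (-0.00088) with quality weights. With each replicate left out, Xbp1 ranged from -0.22 to 0.0258, Atf6 from -0.0633 to 0.14, the ER chaperone median from -0.15 to 0.05, the ERAD median from -0.04 to 0.04 and Ppp1r15a from -0.82 to -0.60. Between male and female Glut1-KO, DESeq2 called 6 members and 1196 genes. The cause of these shifts was not tested. Chac1 and Derl3, with 108 and 152 counts at least, are the members that depth limits most.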
